A study of Mus musculus with 8 samples.

Results

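The 7 genes described here encode the cyclin-dependent kinase (CDK) inhibitors of the mouse: the Cip/Kip genes Cdkn1a, Cdkn1b and Cdkn1c and the INK4 genes Cdkn2a, Cdkn2b, Cdkn2c and Cdkn2d. They were taken by symbol from a table of read counts for 25247 genes, in which 6 of the 7 had a row. Cdkn2a had none and was not analysed here. Bulk RNA was sequenced from Langerhans cells, which are antigen-presenting cells that reside in the epidermis. They had been sorted from the ears of C57BL/6 mice that were wild type (WT) or labelled EZH2 -/- (KO). The sort kept live CD45+ MHCII+ CD24+ EpCAM+ cells and removed those with Ly6G or CD103. The labels give no age, no allele and no promoter or Cre behind the deletion, and do not say whether each library came from its own animal, so the p-values reflect library-to-library variation only, and that may be technical. There were 8 libraries. RMN030 and RMN031 were WT and RMN038 and RMN039 KO by both the sample titles and the sample descriptions. RMN032 and RMN033 were KO by title code and WT by description code, and RMN036 and RMN037 were WT by title code and KO by description code. Contrasts were therefore fitted 3 times, over the 4 undisputed libraries, by title code and by description code, with none preferred. The readings share libraries and are not independent of each other. By number the codes fall into an earlier run, RMN030 to RMN033, and a later one, RMN036 to RMN039. These runs are the description-code genotypes, so that run and genotype cannot be told apart there or in the undisputed libraries.

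CDK inhibitors restrain the kinases that drive cells from G1 into S phase. The Cip/Kip proteins p21, p27 and p57 bind many cyclin-CDK complexes, and the INK4 proteins p16, p15, p18 and p19 bind the kinases CDK4 and CDK6 and keep them from cyclin D. Polycomb repressive complex 2, whose methyltransferase subunit is Ezh2, is known to hold the Cdkn2a-Cdkn2b locus silent in many dividing cell types, and Cdkn1c is an imprinted gene that is also a Polycomb target. Langerhans cells renew themselves in the epidermis at a low rate, and p21 has been tied to their survival of ionising radiation in mice.

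Polycomb complexes are found at CpG-rich promoters, so start-site windows of 3 of the genes are shown with every CpG in capitals. They run from 250 bases before to 50 after a start in RefSeq (build GRCm38.p6) and are read 5′ to 3′ on the strand of the gene. RefSeq gives Cdkn1a more than 1 start, and the counts add up all of its transcripts.
Cdkn1a upstream start, chr17:29090729-29091028, plus strand: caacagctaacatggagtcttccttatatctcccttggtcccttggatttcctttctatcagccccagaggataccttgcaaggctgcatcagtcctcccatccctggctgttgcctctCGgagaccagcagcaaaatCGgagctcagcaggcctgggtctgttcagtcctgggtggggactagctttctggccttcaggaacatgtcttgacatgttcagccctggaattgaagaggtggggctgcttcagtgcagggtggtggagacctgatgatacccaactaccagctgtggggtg
Cdkn1a downstream start, chr17:29093519-29093818, plus strand: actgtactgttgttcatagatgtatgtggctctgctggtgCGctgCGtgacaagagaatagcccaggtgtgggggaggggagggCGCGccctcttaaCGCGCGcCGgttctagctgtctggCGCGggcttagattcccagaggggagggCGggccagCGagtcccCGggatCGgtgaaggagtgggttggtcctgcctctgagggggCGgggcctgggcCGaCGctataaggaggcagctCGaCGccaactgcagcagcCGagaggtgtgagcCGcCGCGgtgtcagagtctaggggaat
Cdkn1b, chr6:134920151-134920450, plus strand: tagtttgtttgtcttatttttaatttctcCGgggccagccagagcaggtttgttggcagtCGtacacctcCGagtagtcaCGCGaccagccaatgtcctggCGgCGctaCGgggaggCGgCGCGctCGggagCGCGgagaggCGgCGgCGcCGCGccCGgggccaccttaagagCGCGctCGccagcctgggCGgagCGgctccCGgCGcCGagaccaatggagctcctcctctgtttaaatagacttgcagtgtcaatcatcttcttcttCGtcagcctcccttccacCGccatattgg
Cdkn2b, chr4:89310983-89311282, minus strand: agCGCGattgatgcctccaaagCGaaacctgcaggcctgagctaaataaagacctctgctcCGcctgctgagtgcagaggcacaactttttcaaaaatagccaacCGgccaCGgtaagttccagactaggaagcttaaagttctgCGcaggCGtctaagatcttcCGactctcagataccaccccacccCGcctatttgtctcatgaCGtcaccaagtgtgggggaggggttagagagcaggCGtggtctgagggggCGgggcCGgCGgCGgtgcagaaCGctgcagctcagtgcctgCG
The upstream window of Cdkn1a held 2 CpG dinucleotides, with an observed-to-expected ratio of 0.089, and 11.8% of the 32851 windows in RefSeq's table were lower. Its downstream window held 23 (ratio 0.786). Cdkn1b held 30, with a ratio of 1.04 that exceeded 96.0% of all windows, and Cdkn2b held 18 (ratio 0.722). The median ratio over all windows was 0.384. These are counts of letters, and no chromatin was measured.

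Library totals ranged from 11051402 to 18966195 counts. All 10 Langerhans cell marker genes were present in every library, with Cd207, the Langerin gene, at 9706 to 11963 CPM (counts scaled to the same total in every library). Ezh2 itself was at 15.7, 22.4, 19.0 and 17.6 CPM in the WT and at 15.2, 14.9, 12.7 and 10.5 CPM in the KO libraries by title code. These did not overlap, as for 2.94% of all genes tested under this reading, the log2 fold change was -0.49 (SE 0.18), and edgeR gave an adjusted p of 0.998. By description code Ezh2 was at 15.7, 22.4, 15.2 and 14.9 CPM in WT and at 19.0, 17.6, 12.7 and 10.5 CPM in KO, which overlapped. In the undisputed libraries its log2 fold change was -0.66 (SE 0.31, edgeR adjusted p = 0.455). The deleted part of the gene is not given in the labels, so its remaining transcript does not test the deletion. Transcripts of other cells differed between libraries. The 16 T lineage marker genes summed to 371 and 372 CPM in RMN030 and RMN031 and to 38.6 to 52.3 CPM in the others, where Cd8b1, Rag2 and Dntt were at 0. In those others the sum was mostly Cd4, at 33.5 to 47.0 CPM. Mitochondrial transcripts summed to 10196 to 18650 CPM in the earlier and 37558 to 40282 CPM in the later run. Keratinocyte transcripts were abundant in every library. The 10 marker genes summed to 12254 to 15735 CPM, with Krt14 at 6463 to 8876 CPM. The part of keratinocytes in the levels given below was not tested, and these are levels of the sorted samples as a whole. In bulk RNA, fewer cells that express a gene and less RNA per cell cannot be told apart.

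Cdkn1a was by far the main CDK inhibitor transcript in this bulk RNA. Per length, in TPM units (counts divided by merged exon length and scaled to a fixed sum), its level was 382 ± 44.1 TPM (SD, n = 8), and it made up 92.1% to 95.1% of the summed TPM of the 6 genes in each library. Cdkn2d came next at 16.7 ± 3.3 TPM, and Cdkn1b followed at 3.98 ± 1.45 TPM. Cdkn2c was at 2.51 ± 0.87, Cdkn2b at 2.07 ± 0.98 and Cdkn1c at 0.703 ± 0.828 TPM. The first 3 places in this order were separate: no library's Cdkn2d reached any library's Cdkn1a, or Cdkn1b any Cdkn2d. The lower places were not. Cdkn1b exceeded Cdkn2c in 7 of 8 libraries, Cdkn2c exceeded Cdkn2b in 3 of 8, and Cdkn2b exceeded Cdkn1c in 7 of 8, and the ranges of each such pair overlapped. As a scale, the target kinase genes Cdk4, Cdk6 and Cdk2 were at 50.6 ± 6.8, 13.3 ± 2.0 and 22.7 ± 1.8 TPM, and the cyclin genes Ccnd1 and Ccnd2 at 52.0 ± 5.9 and 72.8 ± 11.5 TPM. Of the 15 CDK and cyclin genes, 0 had a mean TPM above that of Cdkn1a.

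**Figure D1:**
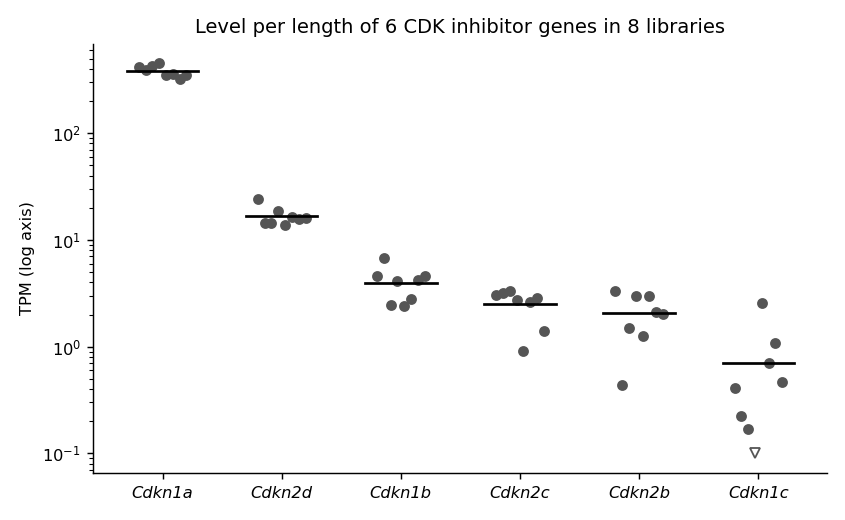
Level per length (TPM, log axis) of the 6 CDK inhibitor genes, 1 point per library and a line at the mean over 8 libraries; the open triangle marks a library with 0 counts, drawn at the foot of the axis. Cdkn1a lies between 324 and 449 TPM in every library, above all points of Cdkn2d (13.9 to 24.0 TPM), which lie above all points of Cdkn1b (2.38 to 6.71 TPM).

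Of the CDK inhibitor genes tested for a genotype difference, 0 passed in edgeR under any of the 3 readings. Of the 5 that passed edgeR's filter on low counts in these fits, 0 had an adjusted p under 0.05 in the undisputed libraries, where 0.794% of all genes were called, 0 by title code (0% of all genes called) and 0 by description code (2.02% called). The count was also 0 at an unadjusted p under 0.05, with DESeq2 and with limma voom. Cdkn1c, the sixth, was below the filter in all 3 fits. Their adjusted p-values in edgeR ranged from 0.826 to 0.962 in the undisputed libraries, from 0.493 to 0.962 by description code, and were 0.998 for all 5 by title code. The median log2 fold change of the 5, KO minus WT, was -0.14 in the undisputed libraries, 0.02 by title code and -0.14 by description code, beside medians of -0.0016, -0.0033 and -0.0085 over all genes tested. How much change the data allow differed widely between the genes, as the 95% intervals below show.

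**Figure D2:**
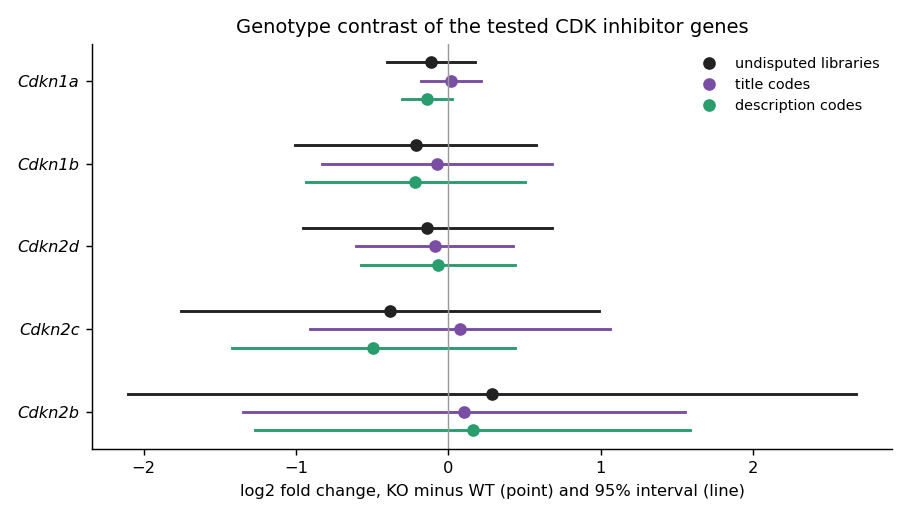
Log2 fold change, KO minus WT, of the 5 CDK inhibitor genes that edgeR tested, with the 95% interval from the fit, for the undisputed libraries (n = 2 and 2), the title codes and the description codes (n = 4 and 4 each). Every interval includes 0, and they widen from Cdkn1a, within -0.41 to 0.22, to Cdkn2b, which spans -2.10 to 2.68.

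Cdkn1a encodes p21, an inhibitor induced by p53 and by TGF-beta. It lies on GRCm38 chromosome 17 (29090976 to 29100727, plus strand) and had 5232 to 10861 counts per library. In the earlier run it was at 534, 489.7, 533 and 573 CPM in RMN030 to RMN033. In the later run it was at 479, 479.8, 443 and 473 CPM in RMN036 to RMN039. On library totals every later library was thus below every earlier one, and the title-code genotypes overlapped. With the TMM-scaled totals that the fits use, the runs overlapped too: RMN031 was at 479.7 CPM, below RMN036 (484.0), RMN037 (480.4) and RMN039 (484.2). By description code the WT mean was 532 ± 33.9 CPM and the KO mean 469 ± 17.6 CPM (SD, n = 4 each). The log2 fold change was -0.14 (SE 0.08, 95% interval -0.31 to 0.03, edgeR adjusted p = 0.493). Groups that did not overlap on library totals were found for 8.82% of all genes under this reading. By title code WT stood at 496 ± 26.2 CPM and KO at 505 ± 58.3 CPM, a log2 fold change of 0.02 (SE 0.09, edgeR adjusted p = 0.998). The interval of that contrast, 0.884- to 1.16-fold, is the narrowest of the 5 genes under the title codes. Within the earlier and the later run the title-code log2 fold changes were 0.07 (SE 0.13) and -0.04 (SE 0.07). In the undisputed libraries the groups did not overlap on library totals, as for 42.1% of all genes with 2 libraries a group, and overlapped with TMM scaling. The log2 fold change there was -0.12 (SE 0.13, edgeR adjusted p = 0.826). Mitochondrial transcripts were higher in every later library, and their part in these levels was not tested.

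**Figure D3:**
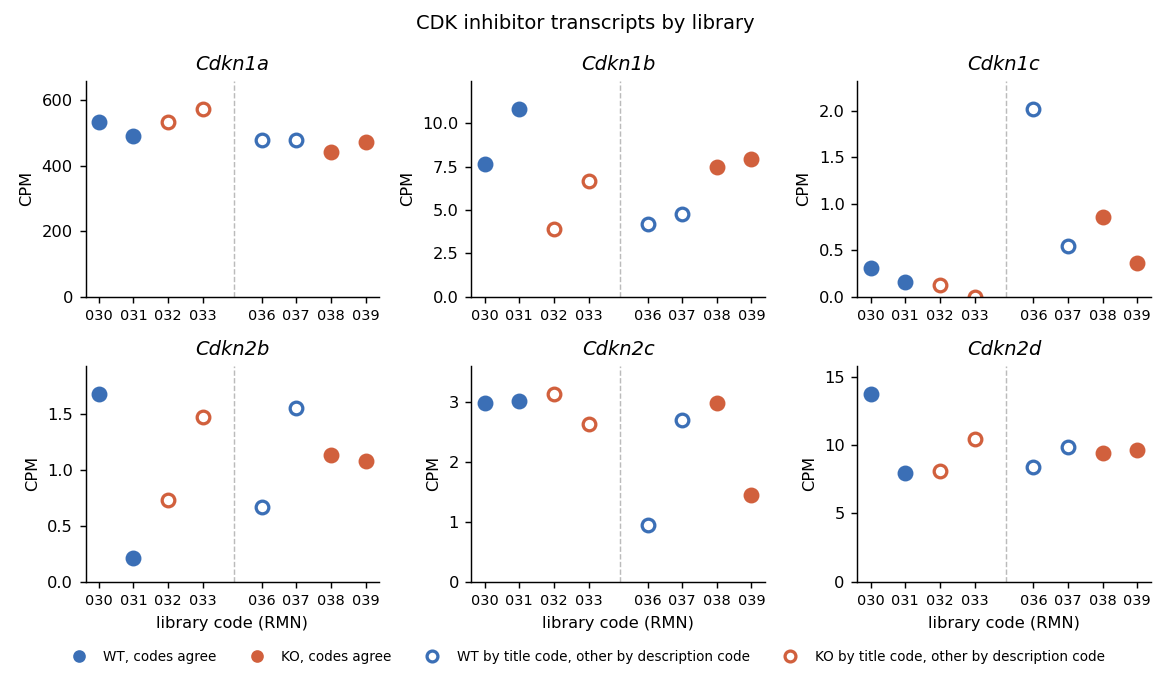
CPM of the 6 CDK inhibitor genes in each library, ordered by library code, with a dashed line between the earlier and the later code run; filled points are libraries whose title and description codes agree on genotype, open points those on which they disagree, coloured by title code. On these library totals Cdkn1a is lower and Cdkn1c higher in all 4 later libraries, which for Cdkn1a does not hold with TMM scaling, and Cdkn1b is highest in the 4 filled points (7.46 to 10.8 CPM against 3.92 to 6.70 CPM).

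Cdkn1b encodes p27, which accumulates in resting cells and is removed by the ubiquitin ligase SCF-Skp2 when they divide. It lies on chromosome 6 (134920401 to 134925513, plus strand) and had 62 to 201 counts per library. The WT libraries RMN030 and RMN031 held 7.64 and 10.8 CPM, and the disputed RMN032 and RMN033 held 3.92 and 6.70 CPM. In the later run the disputed RMN036 and RMN037 held 4.17 and 4.80 CPM, and the KO libraries RMN038 and RMN039 held 7.46 and 7.96 CPM. The 4 undisputed libraries were thus all above the 4 disputed ones, also with TMM scaling. That split was noticed after the values were seen, and 3.32% of all genes tested separate these sets of libraries in 1 direction or the other. By title code this places KO below WT in the earlier run (log2 fold change -0.83, SE 0.37, edgeR adjusted p = 0.660) and above it in the later run (0.81, SE 0.37, edgeR adjusted p = 0.690). The difference between these contrasts, tested as an interaction in edgeR, was 1.65 on the log2 scale (SE 0.52, 95% interval 0.49 to 2.80). Its unadjusted p was 0.00969 and its adjusted p 0.443, so it did not pass over all genes, of which 0.0186% did. This interaction sets the undisputed libraries against the disputed ones, so it restates the split above and is not a separate result. Over all 8 libraries the log2 fold change was -0.07 by title code (SE 0.35, 95% interval -0.83 to 0.68) and -0.22 by description code (SE 0.33, 95% interval -0.94 to 0.50). In the undisputed libraries it was -0.21 (SE 0.36, 95% interval -1.01 to 0.58). The T lineage transcripts were high in RMN030 and RMN031 alone, which are also the WT libraries of the earlier run. Without both libraries the title-code log2 fold change was 0.53 (SE 0.38, edgeR adjusted p = 0.893), a turn of direction. The WT libraries left, RMN036 and RMN037, are of the later run, so genotype and run are mixed in that fit. The part of T lineage transcripts in the Cdkn1b values was not tested. Lockd, a long noncoding RNA gene downstream of Cdkn1b that was looked up after the values were seen, had 0 counts in 6 libraries, 11 in RMN033 and 3 in RMN037.

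**Figure D4:**
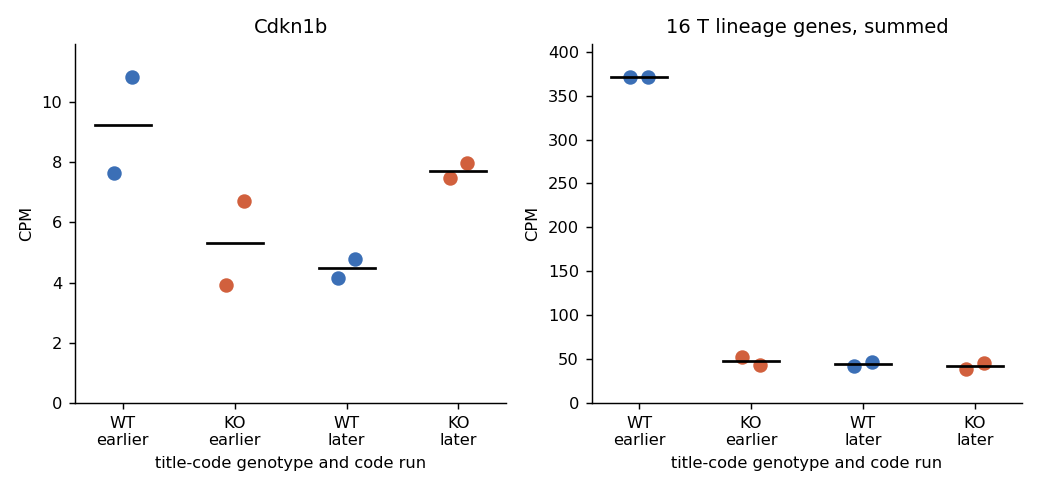
CPM of Cdkn1b (left) and summed CPM of 16 T lineage genes (right) by title-code genotype within each code run, 1 point per library (n = 2 a group) with a line at the mean. Cdkn1b is lower in KO in the earlier run (3.92 and 6.70 against 7.64 and 10.8 CPM) and higher in KO in the later run (7.46 and 7.96 against 4.17 and 4.80 CPM), while the T lineage sum is high in the WT libraries of the earlier run and at 52.3 CPM or less elsewhere, where it is mostly Cd4.

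Cdkn1c encodes p57, the inhibitor of the imprinted cluster on distal chromosome 7 (143458339 to 143461050, minus strand). It was close to the limit of detection, with 64 counts over all libraries. There were 4, 3, 2 and 0 counts in RMN030 to RMN033 and 30, 9, 12 and 4 in RMN036 to RMN039. A floor set at 3 counts stands at 0.158 CPM in RMN033. The exact 95% Poisson interval is 0 to 3.69 counts for the 0 in RMN033 and 20.2 to 42.8 for the 30 in RMN036, both for counting error only. Every later library was above every earlier one in CPM, at 0.362 to 2.02 against 0 to 0.305. Without a filter on low counts, groups that did not overlap were found for 5.73% of all genes by description code, for 31.8% in the undisputed libraries, where those of Cdkn1c did not overlap either, and for 2.23% by title code, where they did. In that unfiltered edgeR fit the log2 fold change of Cdkn1c by description code was 2.68 (SE 1.13), with an unadjusted p of 0.0268 and an adjusted p of 0.371. By title code it had the other sign (-1.17, SE 1.19, edgeR adjusted p = 0.835), and 30 of the 55 counts of the later run lay in 1 library, RMN036. Fibroblast markers were also higher in the later run, as were red blood cell and mitochondrial transcripts. The 7 listed fibroblast genes summed to 37.0 to 62.8 CPM in the earlier and 119 to 199 CPM in the later run, with Pdgfra at 0 in 4 libraries, RMN036 among them. The highest fibroblast sum was in RMN038 (199 CPM), and RMN036, with the most Cdkn1c counts, had 149 CPM. The 6 mast cell markers summed to 31.1 to 43.2 CPM in the earlier and 45.9 to 66.4 CPM in the later run. That sum is mostly Kit, at 26.2 to 37.3 and 18.2 to 30.9 CPM, whereas the mast cell protease genes were far higher in the later run: Mcpt4 was at 0.316 to 0.490 and 4.17 to 8.99 CPM, and Cpa3 at 0 to 1.62 and 5.26 to 13.3 CPM. The part of these cells in the Cdkn1c values was not tested. An antisense gene model, Gm44732, overlaps Cdkn1c and had no row among the counts. Whether the counting used strand is not given in the sources used here, so how reads of the overlap were counted is not known.

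Of the INK4 genes, Cdkn2d was the most abundant. It encodes p19Ink4d, which in mice is found in many tissues, and lies on chromosome 9 (21288410 to 21291407, minus strand). Its level was 13.7, 7.97, 8.09 and 10.5 CPM in RMN030 to RMN033 and 8.40, 9.89, 9.45 and 9.68 CPM in RMN036 to RMN039. RMN030 was highest, and the 7 other libraries lay within 7.97 to 10.5 CPM with both genotypes mixed. The log2 fold change was -0.09 by title code (SE 0.24, 95% interval -0.61 to 0.42), -0.07 by description code (SE 0.24) and -0.14 in the undisputed libraries (SE 0.37).

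Cdkn2c encodes p18Ink4c, an inhibitor known for limiting lymphocyte proliferation in mice (chromosome 4, 109660876 to 109667189, minus strand). Its counts ran from 14 to 56. It was at 2.98, 3.02, 3.13 and 2.64 CPM in RMN030 to RMN033 and at 0.941, 2.70, 2.98 and 1.45 CPM in RMN036 to RMN039. The earlier libraries were close together, and of the later ones RMN036 and RMN039 were low, 1 of each genotype by title code. By description code the WT mean was 2.94 ± 0.21 CPM and the KO mean 2.02 ± 0.98 CPM (SD, n = 4 each), and the groups overlapped. The log2 fold change was -0.49 (SE 0.43, 95% interval -1.42 to 0.43, edgeR adjusted p = 0.721). By title code it was 0.08 (SE 0.45), and -0.38 (SE 0.62) in the undisputed libraries.

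Cdkn2b encodes p15, an inhibitor induced by TGF-beta, and is the one gene of the Polycomb-controlled INK4 locus measured here (chromosome 4, 89306299 to 89311039, minus strand). It was detected in every library, with 4 to 28 counts. Its level was 1.68, 0.215, 0.735 and 1.48 CPM in RMN030 to RMN033 and 0.672, 1.56, 1.14 and 1.09 CPM in RMN036 to RMN039. The highest and the lowest value were both WT libraries of the earlier run, by either code. The KO libraries reached 1.48 CPM by title code and 1.56 by description code, within the WT range of each reading. The log2 fold change was 0.10 by title code (SE 0.67), 0.16 by description code (SE 0.66) and 0.29 in the undisputed libraries (SE 1.09). The title-code interval runs from 0.392- to 2.93-fold and that of the undisputed libraries from 0.233- to 6.39-fold. Its WT libraries RMN030 and RMN031 had 22 and 4 counts, with exact 95% Poisson intervals of 13.8 to 33.3 and 1.09 to 10.2, although RMN031 was the deeper library. Every Cdkn2b count was even, so mates may have been counted separately. The intervals may then be too narrow, and whether these libraries differ beyond counting error cannot be told from them.

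The genes that CDK inhibitors act on and answer to were taken as lists chosen with earlier results of these data known. Of the 15 CDK and cyclin genes 1 passed in any of the 3 readings, Ccnd2, the gene of cyclin D2, by description code. Over all genes 2.02% were called by description code, 0.794% in the undisputed libraries and 0% by title code. By description code Ccnd2 rose from 213 ± 20.8 to 297 ± 21.3 CPM (SD, n = 4 each, edgeR adjusted p = 0.00981). It was at 195 to 239 CPM in the earlier and 274 to 319.6 CPM in the later run. These runs, which are the description-code groups, did not overlap, as for 8.82% of all genes tested. Without RMN030 and RMN031 it did not pass (edgeR adjusted p = 0.0749). Over the undisputed libraries its WT mean was 196 ± 1.63 CPM and its KO mean 302 ± 24.6 CPM (SD, n = 2 each), past the threshold in DESeq2 and limma voom and not in edgeR (adjusted p = 0.0576). The median log2 fold change of the list was 0.10 in the undisputed libraries, 0.06 by title code and 0.13 by description code. Of the 13 genes for pocket proteins, which CDKs phosphorylate, and for the E2F factors that these hold, 0 passed in edgeR in any reading, and 1 had an unadjusted p under 0.05 in each. Over all genes that p was under 0.05 for 11.3% in the undisputed libraries, 4.59% by title code and 12.6% by description code. DESeq2 called 1, E2f2 in the undisputed libraries, and limma voom 0. The smallest p in the undisputed libraries was that of E2f2, an activator of S phase genes. It was at 4.35 and 5.66 CPM in RMN030 and RMN031 and at 0.5682 and 0.7239 in RMN038 and RMN039 (log2 fold change -2.90, SE 0.63, edgeR adjusted p = 0.0712, DESeq2 adjusted p = 0.0270). Without a filter on low counts it passed in edgeR too (adjusted p = 0.00641), as it did without RMN038 (edgeR adjusted p = 0.0300) and without RMN039 (edgeR adjusted p = 0.00907). The high values fall in the libraries with high T lineage transcripts, and the part of those was not tested.

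Genes of the p53 pathway moved in both directions between the description-code groups. Of 20 p53 targets other than Cdkn1a, 2 rose and 3 fell by description code, where 2.02% of all genes were called, and 1 rose in the undisputed libraries, where 0.794% were. By title code 0 passed, as for all genes (0%), and 1 had an unadjusted p under 0.05 in edgeR and 0 were called by DESeq2 or limma voom. Their median log2 fold change was 0.10, 0.33 and 0.20 in these readings. DESeq2 called 4 in the undisputed libraries against edgeR's 1. Gadd45a, a stress-induced growth arrest gene, was at 6.87 to 13.4 CPM in the earlier and 23.3 to 30.8 CPM in the later run. It rose by 2.51-fold by description code (edgeR adjusted p = 0.00507) and by 3.41-fold in the undisputed libraries (edgeR adjusted p = 0.0230). Sesn2, a stress-induced sestrin gene, rose 1.49-fold by description code (edgeR adjusted p = 0.00768). The antiproliferative gene Btg2 fell from 1036 ± 84.9 to 713 ± 17.6 CPM (SD, n = 4 each, edgeR adjusted p = 0.00350). Trp53inp1, a p53-induced nuclear protein gene, was 2.08-fold lower (edgeR adjusted p = 0.0208). It lost its call without any of RMN032, RMN033, RMN036, RMN037 or RMN038 (edgeR adjusted p of 0.0527 to 0.0653). Sesn1, which falls outside the naming rule and was added after its values were seen, was 1.91-fold lower (edgeR adjusted p = 0.0401). It lost its call without any 1 library other than RMN038 (edgeR adjusted p of 0.0539 to 0.120) and in the fit with the replicate number as a block (edgeR adjusted p = 0.0521). Of the 10 genes for p53 and its regulators, Trp53inp1 alone passed, by description code. The description-code groups are the code runs, and other transcripts moved with them. Mitochondrial and fibroblast transcripts were higher in every later library, and 5 red blood cell genes summed to 122 to 226 CPM in the earlier and 580.2 to 1355 CPM in the later run. Their part in these values was not tested.

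**Figure D5:**
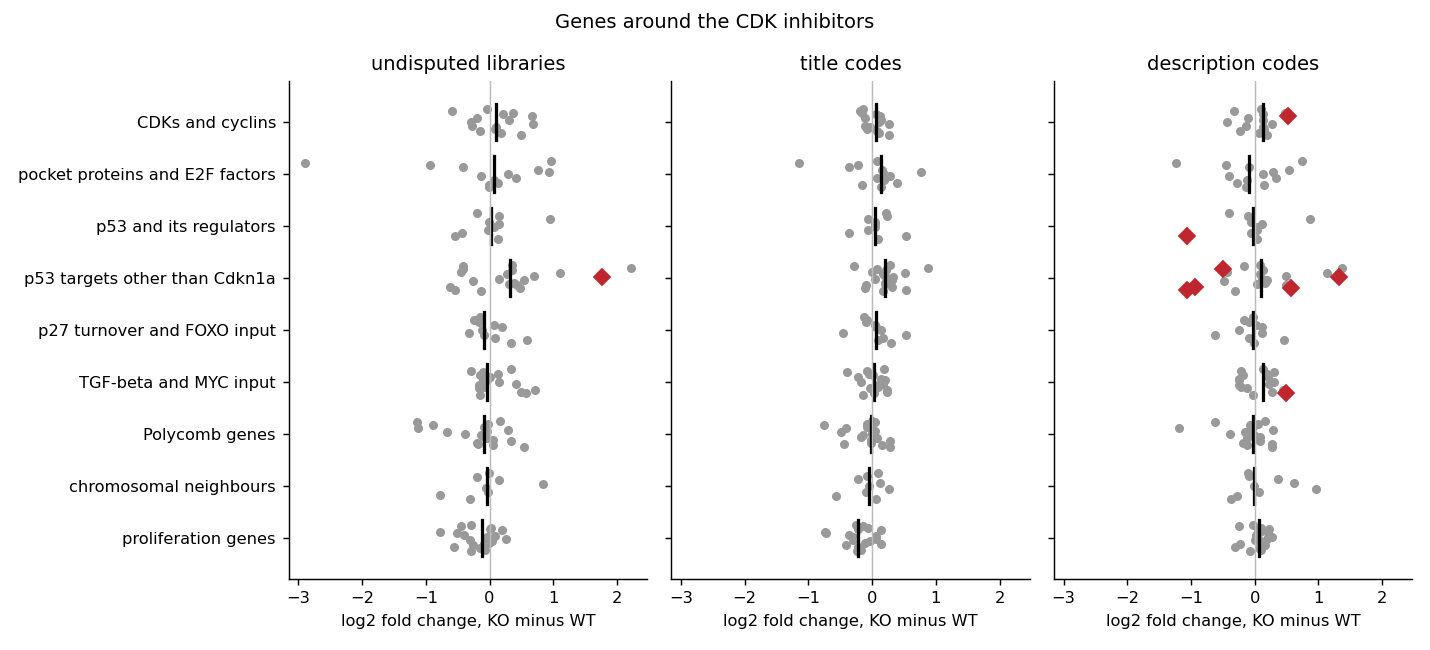
Log2 fold change, KO minus WT, of the tested genes of 9 lists around the CDK inhibitors in the 3 readings, 1 point per gene, with a vertical line at the list's median and red diamonds for genes with an edgeR adjusted p under 0.05. By title code there are 0 diamonds; by description code there are diamonds for Ccnd2, Tgfbr2 and 5 p53 targets, and Trp53inp1 is drawn in both p53 lists.

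Of the genes upstream of p27, 0 of 11 tested passed in edgeR, DESeq2 or limma voom in any of the 3 readings, with 1, 1 and 2 at an unadjusted p under 0.05 in edgeR. For the TGF-beta and MYC inputs to Cdkn2b and Cdkn1a, 1 of 17 tested passed, by description code, where 2.02% of all genes were called and genotype is the code run. Tgfbr2, the TGF-beta receptor gene, had a WT mean of 121 ± 14.1 CPM and a KO mean of 165 ± 13.8 CPM in that reading (SD, n = 4 each, edgeR adjusted p = 0.0258). It lost its call without any of RMN030, RMN031, RMN032, RMN036, RMN037 or RMN039 (edgeR adjusted p of 0.0618 to 0.0815). Of 19 Polycomb genes 0 passed in edgeR under any reading, and 1 had an unadjusted p under 0.05 in each, beside the 11.3%, 4.59% and 12.6% of all genes. The smallest p by description code was that of Jarid2, a cofactor of Polycomb repressive complex 2 (log2 fold change -0.38, SE 0.10, edgeR adjusted p = 0.0763, DESeq2 adjusted p = 0.0107), the 1 gene of the list that DESeq2 called. Among the chromosomal neighbours, 8 of which were tested in the undisputed libraries and 9 in the other readings, 0 passed in edgeR, DESeq2 or limma voom, and 1 had an unadjusted p under 0.05, by description code. Mtap, next to the INK4 locus, had a log2 fold change of 0.84 in the undisputed libraries (SE 0.40, edgeR adjusted p = 0.463). Kcnq1ot1, the noncoding RNA that silences the paternal Cdkn1c cluster, was detected in every library, at 11.1 to 22.6 CPM and, per length, 0.333 to 0.686 TPM. Proliferation genes were transcribed in every library, with the cycling marker Mki67 at 33.4 to 43.2 TPM and Top2a at 13.7 to 27.4 TPM, and 0 of 20 passed in edgeR in any reading, with 1, 1 and 0 at an unadjusted p under 0.05 in the undisputed, title-code and description-code fits. By title code 4 of the 20 had a positive log2 fold change, and the list's median was -0.22. In the undisputed libraries 6 were positive (median -0.12), and by description code 15 were (median 0.08), so the direction differed between readings. Mcm2, a helicase subunit that licenses replication origins, was at 34.6, 32.9, 47.3 and 31.2 CPM in WT and at 22.3, 20.7, 22.3 and 23.7 CPM in KO by title code. The groups did not overlap, as for 2.94% of all genes under this reading. The log2 fold change was -0.72 (SE 0.17), with an edgeR adjusted p of 0.802 and a DESeq2 adjusted p of 0.0449. In the same reading Rbl2, the p130 pocket protein gene of resting cells, had a log2 fold change of 0.39 (SE 0.16, edgeR adjusted p = 0.998).

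The genes whose log2 CPM ran most like that of a CDK inhibitor gene were sought over the 8 libraries among 9488 genes at 5 CPM or more. With so few libraries and so many genes, the correlations are given as a description only. For Cdkn1a they were Pmm1 (Pearson r = 0.976), Pfkp (0.960) and Rxra (0.956), which encode a phosphomannomutase, a phosphofructokinase and a retinoid X receptor. For Cdkn1b they were Mbp (r = 0.969), Cd209b (0.962) and Arhgap31 (0.944). For Cdkn2d, Atp5g1 (r = 0.938) and Sertad3 (0.936) were among them. The points share the code runs and the depth of the libraries.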

How the data were processed

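Counts of reads per Ensembl gene in 8 libraries were deposited by the authors as whole numbers with no normalization. The submitters' processing notes name the aligner STAR (2.5.2b), the counter featureCounts (1.5.0) and the build GRCm38 (mm10). The annotation release, strand setting and treatment of read pairs are not given in the sources used here. Of counts from 1 to 20, 60.1% were even, so mates may have been counted separately and counting intervals may be too narrow. Of 25247 identifiers 25080 matched a symbol and a GENCODE M21 exon length. Library totals were 11051402 to 18966195 counts, and 0 columns were left unused.

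CPM used column totals. Contrasts used edgeR 4.0.16 in R 4.3.3 (filterByExpr, TMM, robust quasi-likelihood F-tests, two-sided, Benjamini-Hochberg over all genes tested, threshold 0.05). SE came from the F statistic and intervals from the fit's degrees of freedom. This fit was first tested on simulated data. The members and lists were chosen with earlier results of these data known. Named were all members, list genes past the threshold (at most 4 a list) or up to 2 with the smallest p, and the 3 genes most like a member at 5 CPM or more (log2 CPM, prior count 2), of which 1 is not reported here. Alternatives were DESeq2 1.42.0, limma 3.58.1 voom with quality weights, RLE factors, 1 CPM as the filter or none, each library left out, RMN030 and RMN031 left out, a replicate block, the code run as covariate, and each run alone. With 1 undisputed library left out, its group has 1, assumed to vary like the other group.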

Additional observations from a re-analysis of the deposited data

Results flagged for a closer look

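Cdkn1b was listed because its title-code contrast differed between the code runs, by 1.65 on the log2 scale in the interaction test, at an unadjusted p of 0.00969 and an edgeR adjusted p of 0.443. That interaction is the same contrast as undisputed against disputed libraries.

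In 3 cases 1 library stood apart from the other 3 of its group, by the gap to its nearest neighbour relative to the range of the group. Cdkn2c was at 0.941 CPM in RMN036 and at 2.70 to 3.02 CPM in the other WT libraries by title code. Gadd45a was at 30.8 CPM in RMN038 and at 23.3 to 24.3 CPM in the other KO libraries by description code. Ezh2 was at 22.4 CPM in RMN031 and at 14.9 to 15.7 CPM in the other WT libraries by description code. Of the 56 groups examined, chance alone gives about 2.8 of this kind.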

How the results depend on the processing

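Over 55 alternative settings in the 4 comparisons, 0 CDK inhibitor genes were called. Of 287 alternative log2 fold changes 37 changed sign and 0 had an adjusted p under 0.05. By title code without RMN030 and RMN031 the values were 0.53 for Cdkn1b, -0.016 for Cdkn2b and 0.036 for Cdkn2d. In the earlier run alone Cdkn2c was at -0.10, and in the later run alone Cdkn1a was at -0.039, Cdkn1b at 0.81 and Cdkn2d at 0.091. By description code Cdkn2d was at 0.018 with limma voom, and without RMN030 and RMN031 Cdkn1b was at 0.25 and Cdkn2d at 0.067. Leaving out 1 library at a time, the title-code values ran from -0.040 to 0.067 for Cdkn1a, -0.25 to 0.22 for Cdkn1b, -0.25 to 0.44 for Cdkn2b, -0.19 to 0.26 for Cdkn2c and -0.20 to 0.11 for Cdkn2d. By description code they ran from -0.43 to 0.036 for Cdkn1b, -0.18 to 0.51 for Cdkn2b and -0.17 to 0.14 for Cdkn2d. In the undisputed libraries they ran from -0.43 to 0.029 for Cdkn1b, -0.58 to 2.38 for Cdkn2b, -1.001 to 0.026 for Cdkn2c and -0.51 to 0.32 for Cdkn2d. In the interaction they ran from -0.11 to 3.85 for Cdkn1c, -2.28 to 0.68 for Cdkn2b, -0.20 to 1.36 for Cdkn2c and -0.11 to 0.72 for Cdkn2d. The cause was not tested.

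Over all genes, 117 were called in the undisputed libraries, 440 without a filter, 305 with DESeq2 and 263 to 629 with 1 library left out. By title code 0 were called, 19 with DESeq2, 1 without a filter and 57 in the earlier run alone. By description code 296 were called, 660 with DESeq2 and 140 to 219 with 1 library left out. In the interaction 3 were called, 178 without a filter, 97 with DESeq2 and 7 with a filter at 1 CPM.

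Same-numbered libraries did not stand out as deviating together. Their correlations were 0.05 to 0.10 by title code and -0.005 to 0.03 by description code. Those of differently numbered libraries ran from -0.15 to 0.19 by title code and from -0.07 to 0.06 by description code, so the numbers were not taken as pairs. By title code every pair within a code run had a positive correlation and every pair across the runs a negative one. With the replicate number as a block, 0 genes were called by title code and 174 by description code, and 0 CDK inhibitor genes in either. Cdkn1c and Cdkn2b had the fewest counts, 64 and 130 over all libraries. With TMM-scaled totals the Cdkn1a groups overlapped in the undisputed and description-code readings, where they did not on library totals.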
